A study of Mus musculus with 24 samples.

Results

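The common copper (Cu) response was taken as the genes whose expression changed with Cu in the same direction in 4 lines of C2C12 cells, an established mouse myoblast line. The 8 libraries of Cu-treated cells were compared with the 8 libraries of non-treated (NT) cells with the line as a block, using edgeR's quasi-likelihood test and a Benjamini-Hochberg adjusted p under 0.05, and each called gene had to have the same sign of its Cu effect in every line. Of 16225 genes tested, 855 were called (5.27%), and 771 of these (90.2%; 4.75% of the genes tested) had 1 direction in all 4 lines, 399 higher and 372 lower with Cu. Among all genes tested, called or not, 19.5% had the same sign in the 4 lines. The comparison used 16 of the 24 libraries of the series.

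The 4 lines were a control that expressed a non-targeting shRNA (scr) and 3 knockdowns (KD) of single subunits of the SWI/SNF chromatin remodelers, *Baf180* KD (a subunit of PBAF, gene symbol *Pbrm1*), *Baf250a* KD (canonical BAF, *Arid1a*) and *Brd9* KD (non-canonical BAF). All lines, scr included, carried an integrated lentiviral shRNA and had been selected with puromycin as populations of cells, and which of the shRNAs listed for each subunit was sequenced is not given in the sources used here. Proliferating cells were kept in medium without added metal (NT) or with 100 µM CuSO4 for 48 h, with 2 biological replicates in each line and treatment, and cells with 50 µM ZnSO4 for 48 h completed the series. Treatments were read from the sample titles, with which a separate treatment field of the labels disagrees for many libraries. Deposited counts of the 16 libraries summed to between 13994335 and 44746359 read pairs on genes, and the values below are CPM (counts relative to the library size after TMM scaling) and log2 fold changes (Cu against NT) with their SE. The targeted subunit was lower in each KD line than in scr, with 41.2 to 76.0 CPM of *Pbrm1* in *Baf180* KD against 98.7 to 170 CPM in scr, 96.9 to 116 CPM of *Arid1a* in *Baf250a* KD against 265 to 302 CPM, and 14.0 to 17.7 CPM of *Brd9* in *Brd9* KD against 27.0 to 32.0 CPM. Myoblast markers were present in all 16 libraries (*Des*, the muscle intermediate filament, at 763 to 2488 CPM and *Myod1*, the myogenic master regulator, at 67.3 to 151 CPM), with little *Pax7* (0.370 to 4.40 CPM), and the summed markers ranged from 1679.8 to 4541 CPM without and from 1733 to 4076 CPM with Cu. In such bulk libraries, fewer cells of 1 kind and less RNA per cell cannot be told apart.

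Copper is an essential cofactor of mitochondrial, antioxidant and matrix enzymes, and free copper ions react with thiols and drive the formation of reactive oxygen species. Cells answer electrophiles and oxidants through NRF2, a transcription factor that KEAP1 holds in the cytosol for degradation until its reactive cysteines are modified, after which NRF2 pairs with small MAF proteins on antioxidant response elements and raises genes of glutathione, thioredoxin, NADPH and iron metabolism. Excess zinc, and other metals that displace zinc from its stores, activates MTF1, which binds metal response elements in the promoters of the metallothioneins.

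Promoters of 4 genes that rose with Cu show these elements, 2 metallothionein genes for MTF1 and 2 genes of the antioxidant system for NRF2. Each window spans 250 bases before and 50 bases after the RefSeq gene start on GRCm38.p6 and is written 5′ to 3′ on the strand of the gene, which is the plus strand in all 4. In *Mt1* (chr8:94178839-94179138) and *Mt2* (chr8:94172368-94172667), capitals mark the core of the metal response element (TGCGCNC or TGCACNC, on either strand).
Mt1: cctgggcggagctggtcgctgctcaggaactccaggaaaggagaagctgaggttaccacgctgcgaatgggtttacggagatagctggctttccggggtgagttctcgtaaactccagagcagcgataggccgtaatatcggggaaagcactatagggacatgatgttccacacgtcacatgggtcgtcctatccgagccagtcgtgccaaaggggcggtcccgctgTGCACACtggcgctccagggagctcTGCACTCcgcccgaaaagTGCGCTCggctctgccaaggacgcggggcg
Mt2: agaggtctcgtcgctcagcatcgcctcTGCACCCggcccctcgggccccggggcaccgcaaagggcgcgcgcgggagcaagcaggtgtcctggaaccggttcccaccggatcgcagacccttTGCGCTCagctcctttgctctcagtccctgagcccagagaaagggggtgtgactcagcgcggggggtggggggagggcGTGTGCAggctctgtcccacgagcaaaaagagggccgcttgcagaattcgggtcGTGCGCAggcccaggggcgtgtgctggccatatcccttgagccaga
In *Srxn1* (chr2:152105274-152105573) and *Gclm* (chr3:122245307-122245606), capitals mark the core of the antioxidant response element (TGACNNNGC or TGAGNNNGC, on either strand, the second form having been added after these windows were read).
Srxn1: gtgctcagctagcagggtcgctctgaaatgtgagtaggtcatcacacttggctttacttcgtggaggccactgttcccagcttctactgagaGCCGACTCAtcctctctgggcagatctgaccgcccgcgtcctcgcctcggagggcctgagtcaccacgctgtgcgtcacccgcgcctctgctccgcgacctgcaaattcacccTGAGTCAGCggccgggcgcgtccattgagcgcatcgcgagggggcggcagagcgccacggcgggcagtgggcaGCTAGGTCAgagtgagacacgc
Gclm: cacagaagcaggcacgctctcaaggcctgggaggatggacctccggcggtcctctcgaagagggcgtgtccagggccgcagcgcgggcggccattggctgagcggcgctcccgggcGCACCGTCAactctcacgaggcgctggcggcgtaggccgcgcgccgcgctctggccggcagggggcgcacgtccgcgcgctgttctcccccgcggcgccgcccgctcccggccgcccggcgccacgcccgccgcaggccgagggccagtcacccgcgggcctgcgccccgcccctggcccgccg
The forward match of *Srxn1* nearest to its start also reads as an AP-1 site (TGANTCA), and the window of *Mt2* holds 1 such site, part of a TGACNNNGC match that is not capitalised. Metal response element cores of the form TGCGCNC, likewise not capitalised, stand in the windows of *Gclm* (3 matches) and *Srxn1* (1 match). The windows therefore do not separate by element. *Nqo1* had no antioxidant element core in the same window. Both cores are short and common, and the shares of promoters that hold them are given below beside those of all genes tested.

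The rises were mostly small and the falls deeper (2.72% of the genes tested were called higher and 2.55% lower). The median log2 fold change was 0.27 for the 399 genes that rose in all lines and -0.51 for the 372 that fell, against -0.0040 over all genes tested. A change of at least 2-fold was reached by 18 of the rises and 46 of the falls. Rising genes were expressed at a median of 61.5 CPM and falling genes at 7.97 CPM, against 17.2 CPM over all genes tested. In 161 of the 399 rises both Cu libraries lay above both NT libraries in every line, as did 1.23% of all genes tested, and in 200 of the 372 falls both lay below, as did 1.42%. The same libraries chose these genes, so such separation follows in part from the choice and is no independent evidence.

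**Figure D1:**
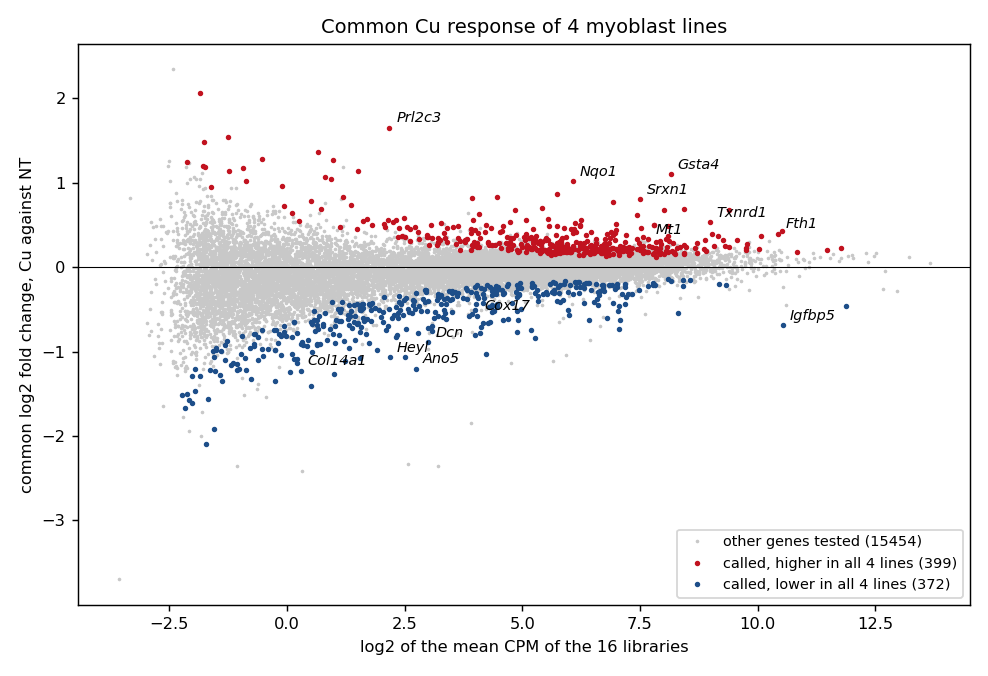
Each point is a gene, with the log2 of its mean CPM over the 16 libraries on the x axis and its common log2 fold change (Cu against NT, line as block) on the y axis. Red points are the 399 genes called higher in all 4 lines, blue points the 372 called lower, and grey points the other genes tested. Rises lie mostly among the better expressed genes, and falls spread to low levels.

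Both numbers depended on the scr line and on the model. Without scr, 1960 genes were called higher and 1617 lower, which included 393 of the 399 rises and 339 of the 372 falls. Without 1 of the other lines the counts were 144 higher and 179 lower (*Baf180* KD), 123 and 153 (*Baf250a* KD) or 81 and 128 (*Brd9* KD). Of single libraries, leaving out scr Cu replicate 2 gave 1368 higher and 994 lower, and leaving out scr NT replicate 2 gave 974 higher. Leaving out any other library gave 217 to 292 higher, apart from *Baf180* KD NT replicate 1, *Baf250a* KD Cu replicate 1 and *Baf250a* KD NT replicate 1, which moved that count by less than 1.5 times. The count of falls dropped to between 226 and 271 without replicate 2 of *Baf180* KD Cu, *Baf180* KD NT or *Baf250a* KD Cu, replicate 1 of *Brd9* KD NT or scr NT, or either *Brd9* KD Cu library. Whichever library was left out, 196 of the 399 rises (49.1%) and 176 of the 372 falls (47.3%) were called in every fit. The log2 fold change followed the GC content of the transcript in each line to a different degree, with a Spearman correlation across 12636 genes of -0.52 in scr, 0.55 in *Baf180* KD, 0.15 in *Baf250a* KD and 0.42 in *Brd9* KD, and of 0.34 for the common effect. Corrected for GC content and length, 763 genes were called higher and 693 lower, among them 385 of the 399 and 356 of the 372. None of the fits without a line, without scr Cu replicate 2 or either scr NT library, or with the correction called any of the 771 genes in the opposite direction.

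*Gsta4* and *Nqo1*, a pair of antioxidant genes, rose in every line without overlap. *Gsta4*, a glutathione S-transferase that conjugates lipid peroxidation products such as 4-hydroxynonenal (chr9:78182774-78209349 on GRCm38), ranged from 83.3 to 277 CPM (median 183) in the 8 NT libraries and from 227 to 594 CPM (median 366) in the 8 Cu libraries. The ranges overlapped across lines, with basal levels that differed between lines, but within each line both Cu libraries lay above both NT libraries. In scr it went from 277 and 271 CPM to 594 and 463 CPM, and in *Baf250a* KD from 95.0 and 83.3 CPM to 234 and 227 CPM. Its common log2 fold change was 1.10 ± 0.071 (SE, n = 8 libraries a group, edgeR adjusted p = 4.85e-07). *Nqo1*, the quinone reductase that is the textbook NRF2 target, lies on chr8:107388225-107403206. It differed far more between lines, from 12.5 and 13.1 CPM in the scr NT libraries to 65.3 and 63.1 CPM in those of *Baf250a* KD, and rose in each, to 20.8 and 19.3 CPM and 152 and 160.3 CPM. The scr Cu libraries therefore stayed below every NT library of the KD lines, although Cu and NT did not overlap within a line. The common log2 fold change of *Nqo1* was 1.02 ± 0.074 (edgeR adjusted p = 8.86e-07), and it was 0.64 in scr, 1.01 in *Baf180* KD, 1.28 in *Baf250a* KD and 1.09 in *Brd9* KD.

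**Figure D2:**
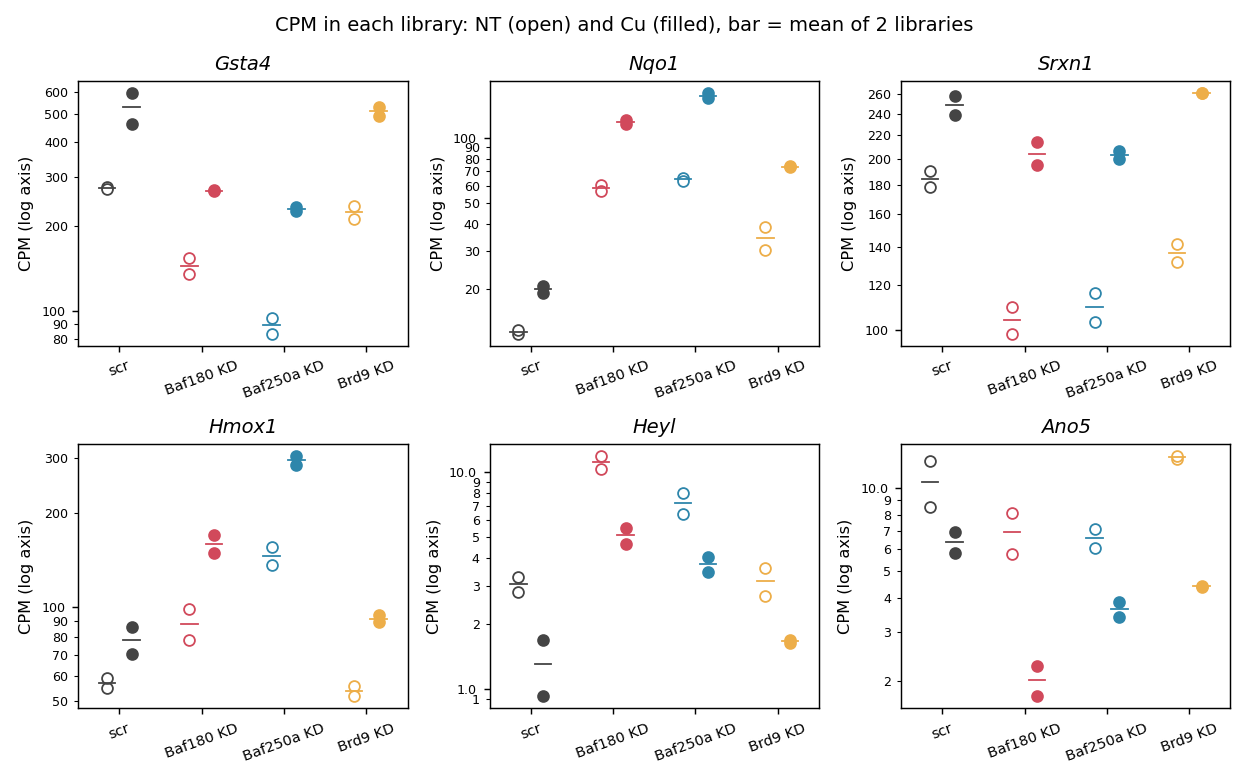
Each panel gives the CPM of 1 gene on a log axis in the 4 lines, with open circles for the 2 NT libraries, filled circles for the 2 Cu libraries and a bar at their mean. In every panel both Cu circles of a line lie on the same side of both NT circles, above for *Gsta4*, *Nqo1*, *Srxn1* and *Hmox1* and below for *Heyl* and *Ano5*.

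Targets of NRF2 that passed the test were all higher with Cu. Over the lists of known targets, 29 of 93 tested genes (31.2%) rose in all 4 lines, against 2.46% of all genes tested, and 24 of them were called whichever library was left out. None of the 93 was called lower by edgeR or by DESeq2, and 0 of them had an unadjusted p under 0.05 in that direction, while DESeq2 called 32 higher. The median log2 fold change of the 93 was 0.14. List by list, the medians in scr lay near 0, from -0.096 (thioredoxin and peroxiredoxin) to 0.17 (glutathione synthesis and transport). They were 0.22 to 0.42 in *Baf180* KD, 0.089 to 0.58 in *Baf250a* KD and 0.16 to 0.47 in *Brd9* KD. The lists were chosen with results of these data known, so their counts are no independent evidence.

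In the synthesis and export of glutathione, 6 of 10 genes rose. *Slc7a11*, the cystine importer that feeds glutathione synthesis, ranged from 5.44 to 23.7 CPM (median 17.6) in NT and from 13.6 to 43.3 CPM (median 29.0) in Cu libraries, with a log2 fold change of 0.83 ± 0.12 (SE, with adjusted p = 6.29e-04 by edgeR). Its rise was 0.28 in *Baf180* KD, where NT and Cu libraries overlapped, and 0.94 to 1.18 in the other lines, where they did not. *Gclc*, the catalytic subunit of the rate-limiting enzyme of the pathway, went from 43.6 to 73.9 CPM (median 63.5) to 56.8 to 122 CPM (median 93.8). Cu libraries lay above NT libraries in every line, and the log2 fold change was 0.55 ± 0.046 (edgeR adjusted p = 4.48e-06). *Gclm*, its modifier subunit, whose promoter is shown above, rose by 0.49 ± 0.062 (adjusted p = 1.89e-04). The exporters *Abcc1* (0.50 ± 0.058) and *Abcc4* (0.48 ± 0.059), which carry glutathione and its conjugates out of the cell, rose likewise, as did *Gsr*, which reduces oxidised glutathione (0.39 ± 0.063; edgeR adjusted p = 0.00136).

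Of the glutathione S-transferases, 6 of 17 rose. Besides *Gsta4* these included *Gstm1* (0.52 ± 0.077; 30.0 to 94.4 CPM (median 49.7) in NT and 30.0 to 151 CPM (median 71.8) in Cu libraries), *Gsto1* (0.37 ± 0.062) and *Gstp1* (0.33 ± 0.06). *Gstm1* overlapped between NT and Cu in 1 line and was separate in 3, while *Gsto1* was separate in all 4. *Gsta2* had a log2 fold change of 1.13 ± 0.21 (edgeR adjusted p = 0.00453) at only 0.230 to 3.72 CPM (median 1.69) in NT libraries, and its reads are hard to tell from those of near-identical *Gsta* copies on chromosome 9, since only uniquely aligned reads were counted.

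Detoxification of quinones, aldehydes and esters was represented by 5 of 17 genes. *Esd*, which hydrolyses S-formylglutathione, was among the steadiest, with 213 to 327 CPM (median 259.8) in NT and 299 to 509.7 CPM (median 458) in Cu libraries, no overlap in any line and a log2 fold change of 0.69 ± 0.061 (edgeR adjusted p = 7.37e-06). *Aldh3a1*, an aldehyde dehydrogenase, rose by 0.70 ± 0.10 (adjusted p = 6.52e-04), from 0.28 in scr to 1.17 in *Brd9* KD.

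The thioredoxin system contributed 5 of 20 genes. *Srxn1*, which repairs over-oxidised peroxiredoxins, ranged from 98.5 to 190.3 CPM (median 124) in NT and from 195 to 261 CPM (median 226) in Cu libraries. All 8 Cu libraries lay above all 8 NT libraries, whatever the line, and the log2 fold change was 0.81 ± 0.069 (SE, with adjusted p = 5.86e-06 by edgeR). *Txnrd1*, cytosolic thioredoxin reductase, went from 251 to 625 CPM (median 409.6) to 427 to 693 CPM (median 648) (0.53 ± 0.065; edgeR adjusted p = 1.63e-04). Its rise was 0.20 in scr and 0.54 to 0.69 in the KD lines. Smaller rises were seen for *Cat*, catalase (0.40 ± 0.056), and *Prdx6*, a peroxiredoxin (0.36 ± 0.068).

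NADPH, the reductant behind both systems, is supplied by enzymes of which 3 of 12 rose in every line. *Pgd* (6-phosphogluconate dehydrogenase) ranged from 167 to 217 CPM (median 199) in NT and from 225 to 374 CPM (median 326) in Cu libraries, without overlap across all lines, and had a log2 fold change of 0.68 ± 0.075 (edgeR adjusted p = 7.26e-05). *G6pdx*, the first enzyme of the pentose phosphate pathway, rose by 0.47 ± 0.066 (adjusted p = 4.65e-04). In scr these rises were 0.29 and 0.23, against 0.74 to 0.90 and 0.52 to 0.56 in the KD lines.

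Heme and iron genes added 4 of 17. *Hmox1*, heme oxygenase 1, ranged from 51.7 to 156 CPM (median 68.7) in NT and from 70.5 to 305 CPM (median 122) in Cu libraries, and its log2 fold change was 0.78 ± 0.077 (SE, with adjusted p = 2.39e-05 by edgeR). The high end of both ranges came from *Baf250a* KD (156 and 136 CPM in NT and 285 and 305 CPM in Cu libraries), and Cu did not overlap with NT within any line. *Slc48a1*, which moves heme out of lysosomes, rose by 0.61 ± 0.088 (adjusted p = 5.08e-04), and the ferritin chains *Fth1* (0.40 ± 0.068) and *Ftl1* (0.43 ± 0.077), which store iron, rose from medians of 1171 and 1249 CPM to 1675 and 1761 CPM. Both ferritin genes have processed copies in the genome, which makes their counts less certain.

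Among the regulators of the pathway, the small MAF proteins and p62 rose, and NRF2 itself and its inhibitor were not called. *Maff* (0.49 ± 0.087), *Mafk* (0.33 ± 0.054) and *Mafg* (0.20 ± 0.044), the binding partners of NRF2, had Cu libraries above NT libraries in each of the 4 lines, with edgeR adjusted p-values of 0.00290, 0.00176 and 0.0127. *Sqstm1*, the p62 autophagy receptor that sequesters KEAP1, rose by 0.37 ± 0.066 (adjusted p = 0.00288). The other 4 of the 8 genes in this list, *Nfe2l2* (NRF2), *Keap1*, *Bach1* and *Cul3*, did not pass the test, with log2 fold changes of -0.074, 0.094, -0.093 and -0.059.

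**Figure D3:**
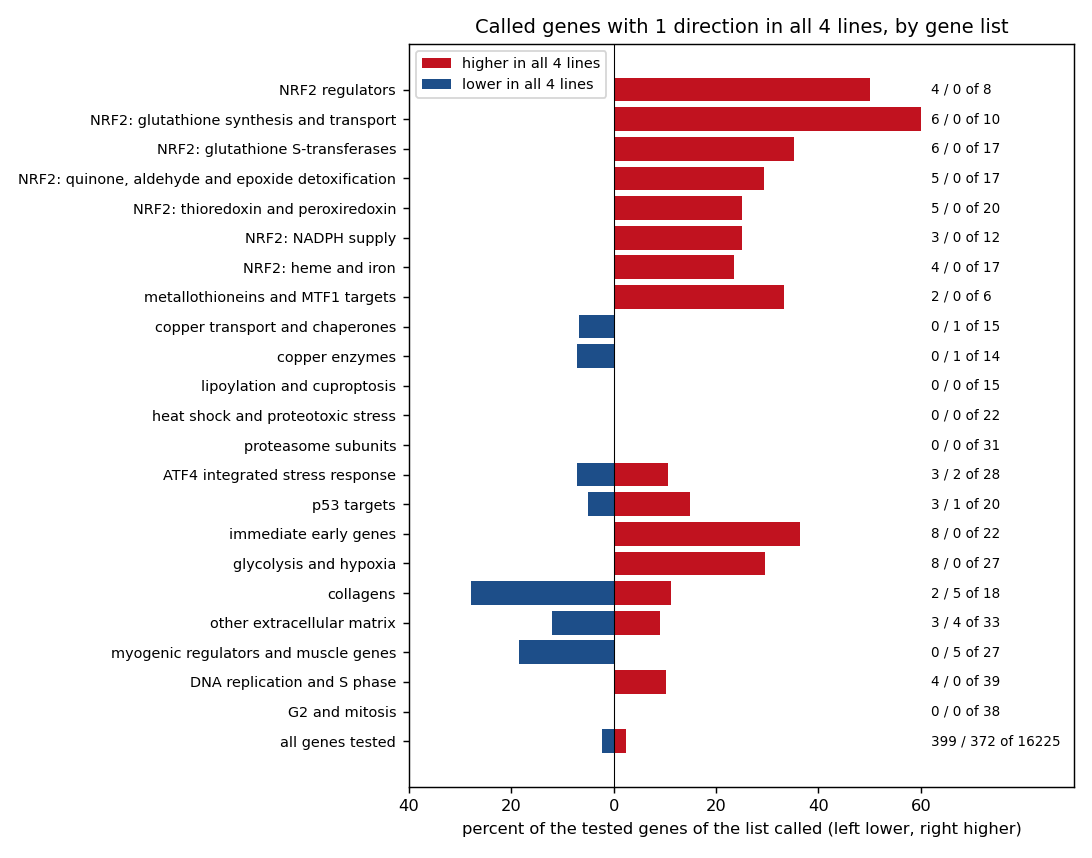
Bars give the percent of the tested genes of each list that were called with 1 direction in all 4 lines, to the right for genes higher and to the left for genes lower with Cu, and the text at the right gives the numbers higher / lower of those tested. The lists of NRF2 targets carry rises only, collagens and other matrix genes carry both directions, muscle genes carry falls, and the last bar is the share among all genes tested.

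The metallothioneins rose modestly. *Mt1*, a cysteine-rich protein that binds copper and zinc (chr8:94179082-94180327), ranged from 54.7 to 278 CPM (median 192) in NT and from 61.4 to 327 CPM (median 243) in Cu libraries, and the ranges overlapped, within 2 of the 4 lines as well. Its log2 fold change was 0.33 ± 0.076 (edgeR adjusted p = 0.0183), and the call was lost without *Baf180* KD Cu replicate 2 (adjusted p = 0.0556), *Brd9* KD Cu replicate 2 (adjusted p = 0.0533) or scr NT replicate 1 (adjusted p = 0.0504). *Mt2* (chr8:94172664-94173568) ranged from 18.0 to 109 CPM (median 81.1) and from 24.9 to 128 CPM (median 107), with Cu above NT in every line and a log2 fold change of 0.38 ± 0.058 (adjusted p = 8.35e-04). *Slc30a1*, the zinc exporter that MTF1 also regulates, did not pass the test (log2 fold change 0.092, adjusted p = 0.457) and had opposite signs among the lines.

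Genes that handle copper itself held 1 call in each list at the level of RNA, too few to set their share apart from that of all genes tested. Of 15 tested transporters and chaperones 1 fell (6.67%, against 2.29% of all genes tested), *Cox17*, the chaperone that brings copper to cytochrome c oxidase. It went from 11.3 to 31.2 CPM (median 19.3) in NT to 6.72 to 24.8 CPM (median 12) in Cu libraries, with no overlap in any line and a log2 fold change of -0.58 ± 0.072 (SE, with adjusted p = 1.83e-04 by edgeR). The importer *Slc31a1* (0.056 ± 0.053; adjusted p = 0.591) and the exporter *Atp7a* (-0.19 ± 0.09; adjusted p = 0.247) did not pass the test. The common value of *Atp7a* averages opposite signs, 0.22 in scr against -0.53 in *Baf180* KD, -0.069 in *Baf250a* KD and -0.40 in *Brd9* KD. Among 14 copper enzymes 1 fell (7.14%), *Loxl2*, a lysyl oxidase of the matrix (-0.31 ± 0.088; adjusted p = 0.0470), which was called in 3 of 16 fits that left out 1 library. None of 15 genes of protein lipoylation, the machinery tied to copper-dependent cell death, none of 22 heat shock genes and none of 31 proteasome subunits was called by edgeR, while 3, 1 and 3 had an unadjusted p under 0.05 and DESeq2 called 1, 0 and 1, all higher. Their median log2 fold changes were 0.042, 0.052 and 0.085. Of all genes tested edgeR called 5.27%, so lists this short would hold few calls at that share.

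Of 22 immediate early genes 8 rose in all lines (36.4%, against 2.46% of all genes tested), and 6 of them were called whichever library was left out. The other 14 were not called, and the median log2 fold change of the list was 0.12. *Fosl1*, an AP-1 subunit, ranged from 63.4 to 146 CPM (median 102) in NT and from 94.6 to 226 CPM (median 145) in Cu libraries, with a log2 fold change of 0.51 ± 0.058 (edgeR adjusted p = 8.89e-05). *Myc* rose by 0.43 ± 0.061 (adjusted p = 4.44e-04), *Klf2* by 0.47 ± 0.094, *Egr1* by 0.33 ± 0.067 and *Dusp6*, a phosphatase of ERK, by 0.29 ± 0.058. Cu lay above NT in each line for *Fosl1*, *Myc*, *Klf2* and *Egr1*, and overlapped with it in 1 line for *Dusp6*. *Hmga2*, an architectural chromatin protein of growing cells, rose by 0.49 ± 0.073 (adjusted p = 6.47e-04), from 0.19 in *Baf180* KD to 0.78 in scr.

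Of 27 genes of glycolysis and hypoxia 8 rose in all lines (29.6%, against 2.46% of all genes tested), with a log2 fold change of at most 0.32. Whichever library was left out, 2 of them were called, namely *Slc2a1*, the glucose importer GLUT1 (0.23 ± 0.049), and *Egln3*, a prolyl hydroxylase of HIF (0.32 ± 0.069). Of 39 genes of DNA replication 4 rose (10.3%) by at most 0.25, and 0 of these were called whichever library was left out. Neither edgeR nor DESeq2 called a gene among 38 of G2 and mitosis, 78 nuclear subunits of oxidative phosphorylation, 79 cytosolic and 77 mitochondrial ribosomal proteins. Of all genes tested, edgeR called 5.27% in either direction. At an unadjusted p under 0.05, 2 genes of G2 and mitosis and 1 of oxidative phosphorylation were lower, and 14 cytosolic and 5 mitochondrial ribosomal protein genes were higher.

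The extracellular matrix changed in both directions. *Col4a1* and *Col4a2*, the paired chains of basement membrane collagen, rose by 0.39 ± 0.051 and 0.32 ± 0.045 (edgeR adjusted p = 2.50e-04 and 4.89e-04), with 409 to 509 CPM (median 439.8) of *Col4a1* in NT and 545 to 649.8 CPM (median 600.4) in Cu libraries. No Cu library reached down to an NT library for *Col4a1*, whatever the line. Other collagens went the opposite way, as *Col6a1* fell by 0.52 ± 0.065, *Col6a2* by 0.43 ± 0.086, *Col11a1* by 0.51 ± 0.098 and *Col14a1* by 1.23 ± 0.21 on the log2 scale. *Col6a1* ranged from 2.72 to 359.7 CPM (median 127) in NT and from 2.04 to 256 CPM (median 85.8) in Cu libraries, and the lines differed widely in level, yet its effect stayed between -0.58 and -0.49 in the 4 lines. In all, 2 of 18 collagens rose and 5 fell in every line (11.1% and 27.8%, against 2.46% and 2.29% of all genes tested), and 3 of 33 other matrix genes rose and 4 fell (9.09% and 12.1%). Whichever library was left out, 2 rises and 4 falls of the collagens and 0 rises and 2 falls of the other matrix genes were called. *Postn*, the matrix protein periostin, was called lower (-0.70 ± 0.20; adjusted p = 0.0495) but had a log2 fold change of 0.22 in scr, and its call held in 2 of the 16 fits without 1 library.

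Of 27 myogenic regulators and muscle genes 5 fell in all lines (18.5%, against 2.29% of all genes tested), and 2 of them were called whichever library was left out. *Tnnt1*, slow skeletal troponin T, went from 7.90 to 16.8 CPM (median 14.2) to 4.92 to 13.8 CPM (median 9.96) (-0.53 ± 0.08; edgeR adjusted p = 6.98e-04), and *Myl1*, a myosin light chain, from 4.19 to 13.1 CPM (median 8.32) to 2.54 to 8.60 CPM (median 6.11) (-0.52 ± 0.09; adjusted p = 0.00247). *Myod1* fell by 0.29 ± 0.065 on the log2 scale, with NT above Cu in each line, and its call was lost without *Brd9* KD Cu replicate 2 (adjusted p = 0.0623), *Brd9* KD NT replicate 1 (adjusted p = 0.0590) or scr NT replicate 1 (adjusted p = 0.0641). The other 2 were *Ckm* and *Myog*, called in 8 and 4 of the 16 fits without 1 library. *Wnt4*, a signalling ligand also in this list, was called higher (0.64) but had a log2 fold change of -0.30 in scr. Its call held in 8 of those fits.

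Other stress programmes held some called genes. Of 28 targets of ATF4, the factor of the integrated stress response, 3 rose (10.7%, against 2.46% of all genes tested) and 2 fell (7.14%, against 2.29%), and 2 of these rises and neither fall were called whichever library was left out. Of these targets, *Slc7a11* and *Ppp1r15a*, a phosphatase subunit that ends this response, were among the rises (0.83 ± 0.12 and 0.30 ± 0.057). Of 20 p53 targets 3 rose (15%, against 2.46% of all genes tested) and 1 fell (5%, against 2.29%). Of these, 1 rise and the fall were called whichever library was left out, with *Plk2*, a kinase of the cell cycle, at 0.33 ± 0.051 and *Sesn1*, a stress sensor, at -0.29 ± 0.058 (edgeR adjusted p = 9.59e-04 and 0.00754). Of 22 lysosomal genes 4 rose (18.2%), 3 of them whichever library was left out, *Gpnmb* by 0.35 ± 0.068.

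Some of the largest rises among genes with a mean normalized count of 50 or more are not named above. Of these, *Gpr137b* belongs to the lysosomal list. *Prl2c3*, a proliferin of the prolactin family, had a log2 fold change of 1.65 ± 0.17 (SE, with adjusted p = 3.62e-05 by edgeR) at 0.275 to 4.88 CPM (median 1.77) in NT and 0.582 to 17.8 CPM (median 5.74) in Cu libraries, and it shares near-identical copies on chromosome 13. *Gpr137b*, a lysosomal membrane protein, ranged from 22.2 to 50.9 CPM (median 40.0) to 48.8 to 86.2 CPM (median 69.2) (0.86 ± 0.062; adjusted p = 8.86e-07), and *Gpr137b-ps*, its annotated pseudogene, rose by 0.53 ± 0.077 as well. *Ptgir*, the prostacyclin receptor (0.83 ± 0.14), *Mmp10*, stromelysin 2 (0.82 ± 0.12), and *Depp1* (0.73 ± 0.16) completed the largest rises at that level. The 118 members with lower counts held larger changes, and over all members the log2 fold change reached from -2.10 to 2.07. *Gsta4*, *Nqo1* and *Prl2c3* were the only genes called in a test against a minimum fold change of 1.5, in either direction.

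Among the largest falls above the same limit on the mean count, *Ano5*, a membrane protein of the anoctamin family whose loss causes muscular dystrophy, ranged from 5.75 to 13.1 CPM (median 8.32) in NT and from 1.76 to 6.91 CPM (median 4.13) in Cu libraries (log2 fold change -1.20 ± 0.15; edgeR adjusted p = 1.78e-04). *Heyl*, a Notch effector, went from 2.68 to 11.9 CPM (median 5.02) to 0.930 to 5.55 CPM (median 2.59) (-1.06 ± 0.12; adjusted p = 7.26e-05). For both genes the ranges overlapped across lines, and both Cu libraries lay below both NT libraries within each line. *Stra6*, a retinol transporter (-1.06 ± 0.15), *Tmc3* (-1.11 ± 0.18), *Htra3*, a secreted protease (-0.90 ± 0.13), and *Dcn*, the proteoglycan decorin (-0.89 ± 0.17), also fell. *Aspn*, the proteoglycan asporin, had a log2 fold change of -1.08 ± 0.26, and its call was lost without *Baf180* KD NT replicate 2 (adjusted p = 0.0562) or *Baf250a* KD NT replicate 2 (adjusted p = 0.0619). A further 4 of the largest falls above this limit, *4732440D04Rik*, *Gm19721*, *Gm49747* and *6430511E19Rik*, are known by identifiers alone and lay at medians of 3.02 to 4.73 CPM in NT libraries. Of 6 tested fibroblast markers 2 were called lower and none higher, with a median log2 fold change of -0.31, and *Dcn* alone was among the 771 genes. The sum of the 7 listed markers did not move in 1 direction (32.6 to 237 CPM in NT and 23.4 to 225 CPM in Cu libraries). The part of these markers in the falls was not tested.

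**Figure D4:**
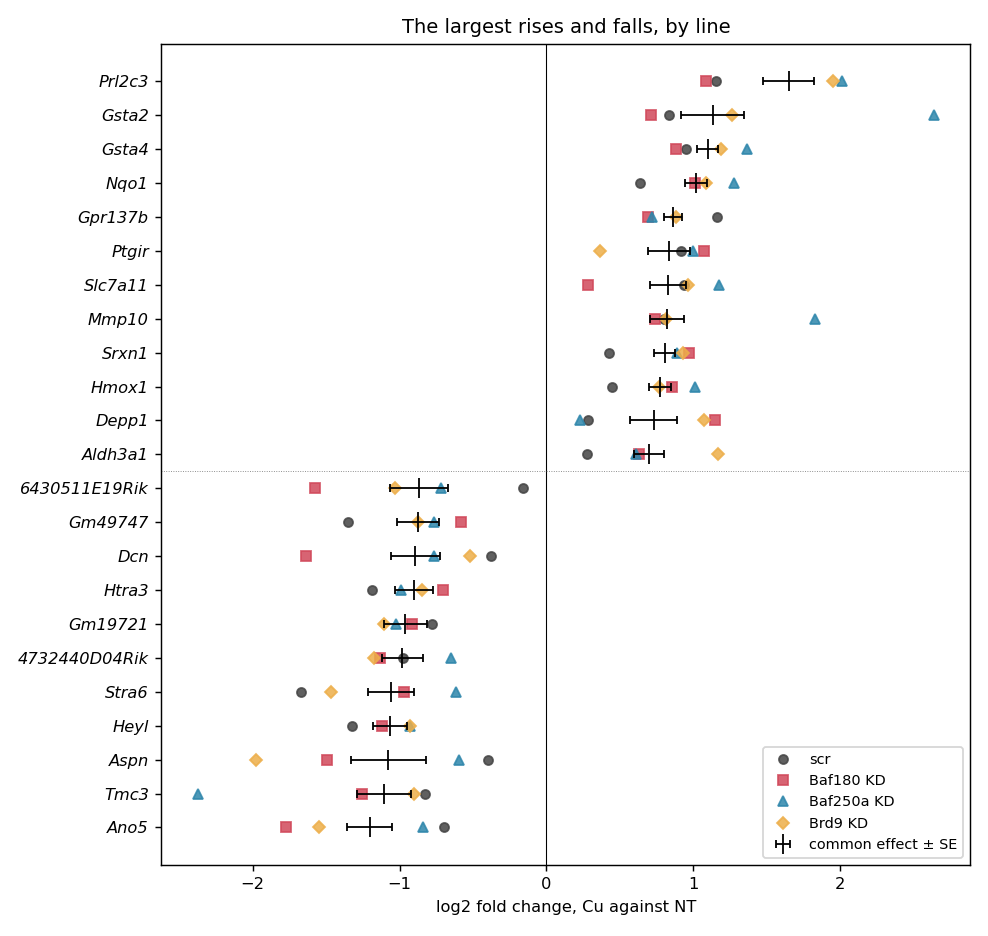
The log2 fold change (Cu against NT, x axis) of the 12 largest rises and of the largest falls named in the text (mean normalized count 50 or more), with a symbol for each line and a black mark for the common effect with its SE. All symbols of a gene lie on the same side of 0, as the choice of genes requires, and their spread differs from gene to gene, being narrow for *Gsta4* and *Gpr137b* and wide for *Gsta2* and *Aspn*.

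Called line by line, with 2 libraries a group, the genes were far fewer in 3 lines and more in the fourth: 31 in scr (0.191%), 48 in *Baf250a* KD (0.296%), 88 in *Brd9* KD (0.542%) and 1794 in *Baf180* KD (11.1%). The numbers rested on few libraries, and that of *Baf180* KD was 39 without its Cu replicate 1, 50 without its NT replicate 2, 371 without its NT replicate 1 and 1123 without *Baf250a* KD Cu replicate 2, but 2767 and 2764 without scr Cu replicates 1 and 2. No single line called 207 of the 399 rises and 228 of the 372 falls, nor 14397 of the 16225 genes tested. Of the 771 genes, 33 were called in at least 3 lines, 23 higher and 10 lower, and no other gene tested was. In all 4 lines 5 were called: *Gsta4*, *Nqo1*, *Gpr137b*, *Nid1* and *Serpinb9b*. *Nid1*, the basement membrane protein nidogen 1, and *Serpinb9b*, a serine protease inhibitor, were singled out after their values were seen. *Nid1* ranged from 298 to 609.7 CPM (median 570.3) in NT and from 460.1 to 1126 CPM (median 856) in Cu libraries (0.68 ± 0.06; edgeR adjusted p = 7.37e-06), with a log2 fold change of 0.43 to 0.93 in the lines. *Serpinb9b* ranged from 19.2 to 34.3 CPM (median 27.2) and from 26.8 to 57.8 CPM (median 39.4) (0.56 ± 0.063; adjusted p = 7.26e-05).

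The 33 genes, also named after their values were seen, included a secreted neurotrophic factor. *Gdnf*, glial cell line-derived neurotrophic factor, ranged from 17.6 to 33.9 CPM (median 23.8) in NT and from 25.0 to 47.6 CPM (median 29.3) in Cu libraries, and within each line both Cu libraries lay above both NT libraries (0.38 ± 0.049; edgeR adjusted p = 2.26e-04). *Dusp4*, a MAP kinase phosphatase, rose by 0.50 ± 0.049. Falls included *Igfbp5*, a secreted binding protein of insulin-like growth factors that myoblasts express highly, with 1188 to 2410.2 CPM (median 1845) in NT and 721 to 1384 CPM (median 1272) in Cu libraries (-0.69 ± 0.065; edgeR adjusted p = 1.40e-05). *Cd200*, an immune regulatory membrane protein (-0.84 ± 0.096), *Tgm2*, transglutaminase 2 (-0.66 ± 0.074), *Car2*, carbonic anhydrase 2 (-0.76 ± 0.094), and *Islr*, a secreted protein of mesenchymal cells (-0.62 ± 0.10; from -1.31 in scr to -0.23 in *Baf250a* KD), fell too.

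The size of the response in the 771 genes differed among the lines, while their direction was fixed by the way they were chosen. The 399 rises had a median log2 fold change of 0.17 in scr, 0.25 in *Baf250a* KD, 0.31 in *Brd9* KD and 0.32 in *Baf180* KD, and scr had the smallest of the 4 values for 233 of them. The 372 falls had medians of -0.44, -0.43, -0.48 and -0.54 in the same order. Across all 12850 genes with a mean of at least 1 CPM, the Cu effect in scr had a Pearson correlation of -0.13 with that in *Baf180* KD, -0.011 with *Baf250a* KD and -0.18 with *Brd9* KD, and the effects in the KD lines correlated with one another at 0.23 to 0.55. These are descriptions across genes, which are not independent, and the effects also followed GC content as given above. No gene passed edgeR's test of a difference in the Cu effect among the 4 lines (the smallest adjusted p was 0.0597), while 3090 of the 16225 (19%) and 106 of the 771 genes (13.7%) had an unadjusted p under 0.05. DESeq2's likelihood ratio test called 991, and edgeR called 1043 without scr Cu replicate 1 and 999 without scr NT replicate 1. The scr replicates also differed most from each other, with a median absolute difference over 9169 genes of 0.17 (Cu) and 0.15 (NT) in log2 CPM against 0.0809 to 0.12 in the other groups. The summed level of ribosomal RNA-like loci, which reflects how well rRNA was removed, ranged from 846 to 50249 CPM in NT and from 1275 to 11495 CPM in Cu libraries, with opposite signs among the lines, and its part in these differences was not tested.

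Zn, which is the usual inducer of the metallothioneins, gave a different set of values. The Zn comparison shares its NT libraries with the Cu comparison, so its values stand beside those of Cu. Over 4 lines, 4 of 16176 genes were called higher with Zn (0.0247%), *Mt1*, *Mt2*, *Slc30a1* and *Egr1*, and 1 lower (0.00618%), *Slc39a10*, a zinc importer. *Baf250a* KD Zn replicate 2 was shallow, with a total count of 495778 against 12719173 to 75179394 in the other Zn libraries. Over 7 other settings of the Zn comparison, 4 to 14 genes were called higher and 1 to 47 lower. *Mt1* had a log2 fold change of 1.57 ± 0.15 (SE) with Zn and 0.33 ± 0.076 with Cu, *Mt2* of 2.09 ± 0.22 and 0.38 ± 0.058, and *Slc30a1* of 1.04 ± 0.10 and 0.092 ± 0.064. Compared directly, all 3 were lower with Cu than with Zn, by 1.24, 1.71 and 0.94 on the log2 scale (edgeR adjusted p = 8.77e-05, 5.07e-05 and 3.12e-06). *Gsta4* had 0.38 ± 0.085 with Zn (adjusted p = 0.245) and *Nqo1* 0.30 ± 0.082 (adjusted p = 0.511), and both were higher with Cu than with Zn, by 0.70 and 0.70 (adjusted p = 1.58e-04 and 6.39e-05).

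The doses and the metals differed together, 100 µM of Cu against 50 µM of Zn. Of the 399 genes that rose with Cu, 207 were called higher with Cu than with Zn, where 2.77% of 16120 genes were, and *Mt1* and *Mt2* were called lower, where 2.05% were. Of the 372 that fell, 144 were called lower with Cu than with Zn and none higher. These comparisons use the Cu libraries that chose the genes, so the counts describe and do not test them. For *Slc7a11* (0.59 with Zn, 0.21 for Cu against Zn, adjusted p = 0.235), *Gclm* (0.26 and 0.22, adjusted p = 0.0914) and *Gsr* (0.22 and 0.16, adjusted p = 0.201) the metals were not shown to differ, though Zn was not called for them either.

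**Figure D5:**
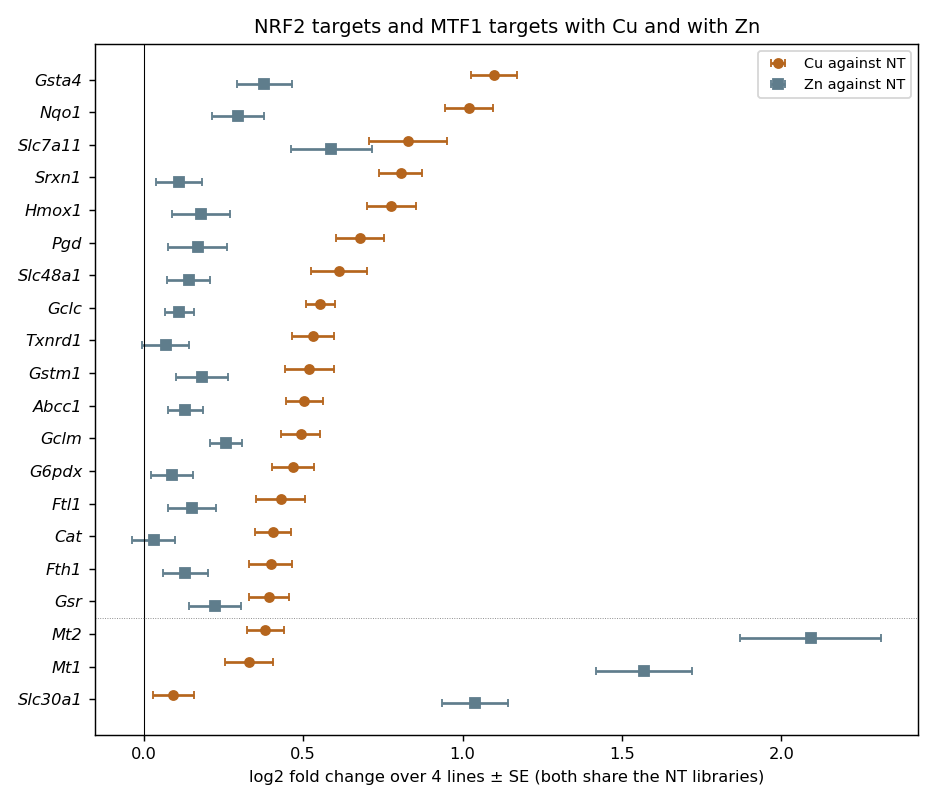
The log2 fold change over the 4 lines with its SE (x axis) for Cu against NT (circles) and Zn against NT (squares), for 17 NRF2 targets above the dotted line and 3 MTF1 targets below it. The circles lie to the right of the squares for the NRF2 targets, and the squares lie far to the right of the circles for *Mt2*, *Mt1* and *Slc30a1*.

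Other features of the genes that rose and fell are given as descriptions, and no difference was tested. Protein-coding genes made up 96.7% of the rises and 71.0% of the falls, against 77.5% of all genes tested, and noncoding genes 2.01%, 26.3% and 14.6%. The median GC content of the longest transcript was 51.5% for the rises, 49.0% for the falls and 49.2% for all genes tested, and GC content is not independent of the choice of genes, as the common fold change followed it. A core of the antioxidant response element stood in the promoter window of 130 of 303 rising genes with a RefSeq window (42.9%), 37.0% of falling genes and 35.4% of all genes tested. With TGACNNNGC alone, the shares were 20.5%, 16.1% and 16.7%. The core of the metal response element stood in 43.6%, 40.8% and 40.3%, and the AP-1 site in 9.9%, 11.8% and 6.58%. A match describes letters in a window and not a bound site.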

How the data were processed

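RNA from C2C12 myoblasts was sequenced after digestion of rRNA with RNase H and strand-specific library preparation. Reads were aligned by the authors with STAR to the mm10 build, and pairs with a unique alignment were counted per gene on the sense strand with featureCounts. The deposited counts are raw whole numbers for 55291 gene symbols. Tables of the authors' own comparisons (log2 fold changes and p-values from DESeq2) were also deposited and were not used. Groups follow the sample titles, as the treatment field of the labels disagrees with the titles for many libraries, and the labels name primary myoblasts where the methods name C2C12. Versions of the aligner and counter are not given in the sources used here.

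From the counts, genes were filtered with filterByExpr and scaled by TMM in edgeR 4.0.16 (R 4.3.3), and tested by quasi-likelihood (glmQLFit and glmQLFTest) with Benjamini-Hochberg adjustment over all genes tested and no minimum fold change. The main fit held the 16 NT and Cu libraries with the line as block and 1 Cu effect (11 residual degrees of freedom), so that its residual holds both the spread of replicates and differences of the response among lines. Effects of single lines and their difference came from a fit with 8 groups, and a sign was set only where a line had a count of the gene. Zn against NT and Cu against Zn were fitted alike, over 16 libraries each. The SE of a log2 fold change was derived from the quasi-likelihood F. The main fit did not pair NT with Cu libraries by replicate number. Deviations of same-numbered libraries correlated at -0.19 (scr), 0.14 (*Baf180* KD), 0.015 (*Baf250a* KD) and -0.094 (*Brd9* KD) over all genes tested. Over genes with a mean of at least 1 CPM they correlated at -0.33, 0.20, 0.021 and -0.24 in the same order. With 2 replicates these values cannot decide whether the numbers pair the libraries. Counts were simulated for the same 16225 genes and this comparison, at this depth and number of replicates. Of 200 genes changed by 0.25, 0.5 and 1 on the log2 scale, 18.5%, 67.5% and 80% were called. In the same order, 1, 7 and 5 unchanged genes were called. Recovery and false calls in counts whose Cu effects differ among lines or follow GC content, as those above do, were not tested.

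GC content and length are those of the longest GENCODE M21 transcript of a symbol, coordinates are GRCm38, and promoters are RefSeq's on GRCm38.p6 (10659 of the 16225 genes had a window). Members and gene lists were chosen with earlier results of these data known. Named genes are *Gsta4* and *Nqo1*, genes that the paper names with metal treatment, the 12 largest rises and 12 largest falls among the members whose mean normalized count was 50 or more, and up to 6 members of each list, and genes called in at least 3 lines were added after their values were seen. Alternatives were RLE size factors, DESeq2 1.42.0, a filter of 1 count in total, a filter on the mean normalized count (1 or more), a minimum fold change of 1.5, the replicate number as block, a correction for GC content and length (spline with 5 degrees of freedom), both together, the mean of 4 line effects, all 24 libraries, counts thinned to the smallest total, and leaving out each line, each library or the shallow Zn library. A few named genes are not reported here.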

Additional observations from a re-analysis of the deposited data

Results flagged for a closer look

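For 4 of the named genes both Cu libraries lay above both NT libraries in 1 line and below them in another, so that the lines moved in opposite directions. *Wnt4*, a signalling ligand, had a log2 fold change of -0.30 in scr against 1.05 in *Baf180* KD, 1.03 in *Baf250a* KD and 0.79 in *Brd9* KD. *Atp7a*, the copper exporter, had 0.22, -0.53, -0.069 and -0.40 in the same order. *Slc30a1*, the zinc exporter, had 0.27, 0.12, -0.14 and 0.13. *Synpo2l*, a sarcomere protein, had 0.041, -0.10, 0.15 and -0.15. The test of a difference among all 4 lines gave an edgeR adjusted p of 0.0728, 0.105, 0.354 and 0.413 for these genes, and the single pairs of lines were not tested. With 2 libraries a group, no group could be tested for a library far from the others.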

How the results depend on the processing

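RLE size factors, a mean normalized count of at least 1, all 24 libraries, thinned counts and DESeq2 kept the counts of the common Cu response (442 higher and 413 lower, 399 and 372 in 1 direction) within 1.5 times. Called higher and lower were 722 and 663 with every gene of at least 1 count, 763 and 693 after correction for GC content and length, 686 (higher) for the mean of 4 line effects, 3 and 0 at a minimum fold change of 1.5, 1960 and 1617 without scr, 144 and 179 without *Baf180* KD, 123 and 153 without *Baf250a* KD, and 81 and 128 without *Brd9* KD. In 1 direction in every line were 699 and 624 after the correction, 3 and 0 at the minimum fold change, and 1893 and 1544, 143 and 177, 123 and 150, and 80 and 121 without the lines in the same order. With 1 library left out, the counts ranged over 217 to 1368 higher and 226 to 994 lower (204 to 1205 and 216 to 828 in 1 direction). Fits without a line or library also hold fewer samples, and the cause of these changes was not tested.

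The replicate number as a block left 156 genes higher and 198 lower (155 and 191 in 1 direction), 14 calls in scr, 120 in *Baf180* KD, 16 in *Baf250a* KD and 11 in *Brd9* KD, and 194 higher and 121 lower for Cu against Zn. Whether the numbers pair these libraries is not known, and the block removes 4 residual degrees of freedom. With the block and the correction together, *Baf180* KD had 352 calls and *Brd9* KD 46.

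The difference among lines (0 calls) became 1999 with every gene of at least 1 count, 9 with a mean of at least 1, 2 after the correction, 991 in DESeq2 and 0 to 1043 with 1 library left out. Calls in scr, *Baf250a* KD and *Brd9* KD were 989, 168 and 660 with every gene of at least 1 count, 101, 142 and 186 after the correction and 123, 107 and 194 in DESeq2, and *Baf180* KD had 992 after the correction. Their ranges with 1 library left out were 11 to 185 (scr), 39 to 2767 (*Baf180* KD), 11 to 92 (*Baf250a* KD) and 14 to 186 (*Brd9* KD). Genes higher and lower with Zn were 14 and 47 with every gene of at least 1 count, 9 and 5 after the correction, 12 and 47 in DESeq2, 2 lower with RLE, and 4 to 5 and 1 to 2 with 1 library left out. For Cu against Zn, DESeq2 called 858 and 681, 749 were lower with every gene of at least 1 count and 508 without the shallow *Baf250a* KD Zn replicate 2, and the ranges with 1 library left out were 204 to 807 and 149 to 753.

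Among 124 named genes, direction was kept under every alternative that gave a value for the gene (*Csf1r* had none in DESeq2, with thinned counts or without *Baf180* KD), except for *Synpo2l*, which was not called (-0.015) and turned to 0.000737 with every gene of at least 1 count, 0.0082 without *Baf180* KD, 0.030 without *Brd9* KD and ranged from -0.037 to 0.024 with 1 library left out. Depth set the floor: falls lay at a median of 7.97 CPM, and 118 of the 771 genes had a mean normalized count under 50.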

Other observations

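Other lists held few called genes, where edgeR called 5.27% of all genes tested. Of 57 replication-dependent histone genes, whose transcripts lack a poly(A) tail and whose copies are nearly identical, *Hist1h2an* rose (0.41 ± 0.085; adjusted p = 0.00957), 13 were higher at an unadjusted p under 0.05 and DESeq2 called 3, while the list's median was -0.24 in scr and 0.67 in *Baf180* KD. The 22 tested SWI/SNF subunits had a median log2 fold change of 0.00481, and edgeR called none, against 4 at an unadjusted p under 0.05 and 1 by DESeq2. Among 12 transcripts of the mitochondrial genome neither tool called a gene, and none had an unadjusted p under 0.05.

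Markers of other cells were low. The summed adipocyte markers ranged from 23.1 to 124 CPM in NT and from 21.3 to 111 CPM in Cu libraries, and came from *Pparg* and *Lpl*, which other cells express too. Endothelial markers summed to at most 6.10 CPM and macrophage markers to at most 6.42 CPM. *Csf1r*, a macrophage receptor, was called lower (-1.28 ± 0.36; edgeR adjusted p = 0.0406) at no more than 0.693 CPM in any library, with a call in 4 of the 16 fits without 1 library.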
